A study of Homo sapiens with 18 samples.

Results

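The HOX, DLX, MSX, BARHL, LHX, PAX and IRX genes and the sine oculis genes SIX2 to SIX6 were followed across all 18 arrays of a flagellin experiment in HEK293 cells. A gene was taken when a row of the deposited table carried its symbol alone, the symbol being one of these family names (HOXA, HOXB, HOXC and HOXD for HOX) followed by a number. Antisense genes were left out, and the row with the highest mean stood for its gene. This gave 62 of 22357 genes with such a row. Of these, 57 passed the filter on low values (above the array's own median on at least 3 arrays) and were tested among 16111 genes. The choice of these families rests on measured values, since DLX5 and BARHL2 were already known to be lower with flagellin at 120 min. Values for flagellin against mock at 120 min are therefore a description, and calls there are only counted beside their background.

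The cells were a human embryonic kidney line that overexpresses murine TLR5, the receptor for bacterial flagellin, and all groups share this transgene. They were exposed to isolated flagellin of E. coli Nissle (EcN, a probiotic strain), to isolated flagellin of Salmonella Typhimurium SL1344 (ST, a pathogen), or to a mock control. Cells were collected after 60 or 120 min, with 3 arrays lettered A, B and C in each of the 6 groups, namely EcN, ST and mock at 60 min and EcN, ST and mock at 120 min. Cultures were labelled with light, medium or heavy amino acids, and the label behind each array was not given in these sources. The description fields of the 6 ST arrays name mock, while the title, source name and treatment of each name ST, and the title was followed. HEK293 is a transformed line and models no particular tissue, and neither the promoter of the TLR5 transgene nor the number of clones is stated in the labels. The letters are called biological replicates in the labels, which do not say that they came from separate cultures, so the p-values measure the spread between these arrays, which may be partly technical.

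Homeobox genes encode transcription factors that bind DNA through a homeodomain and set the identity of regions and cell types in the embryo. HOX genes lie in clusters and pattern the body axis by their order in the cluster, DLX and MSX genes act in limb, face and forebrain, BARHL genes in neurons and the inner ear, LHX proteins carry LIM domains, PAX proteins a paired domain, and sine oculis proteins such as SIX2 work with EYA partners. PAX2, LHX1, SIX2 and several HOX genes take part in the making of the kidney, and cultured cell lines often keep a pattern of HOX expression. PAX1 and PAX9 have a paired domain but no homeodomain, and they are kept here as members of their family.

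Some arrays stand apart and bear on every result. NFKBIA, the NF-kB inhibitor that NF-kB itself induces, lay at a log2 level of 10.15 to 10.85 on 5 arrays and at 8.09 to 8.82 on the other 13. The 5 arrays were EcN and ST replicate C at 60 min, EcN and ST replicate C at 120 min, and the array labelled mock 120 min replicate A, which goes against its label. The A and B arrays of both flagellins were not above the mock 60 min arrays in NFKBIA. Because of these 5 arrays, results are also given without all 6 C arrays. Some are given without the array labelled mock 120 min replicate A, alone or together with the C arrays. All values are log2 levels from the authors' RMA normalization of Affymetrix arrays. A log2 difference of 1 is a doubling, and levels of different genes are not comparable because each rests on its own probes. In RNA from a whole culture, fewer cells with a transcript and less of it per cell cannot be told apart.

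Most members lay above the array medians. On all 18 arrays, 52 of the 62 lay above the array median. HOXB1, LHX5 and SIX6 did so on only 1 or 2 arrays, and IRX2 and PAX8 on none, so these 5 were not tested. PAX8, a kidney lineage factor, ranged from 1.54 to 2.28, and PAX2, its close relative, from 5.23 to 6.17. The families held 6 DLX genes, 1 HOXA gene (HOXA2), 9 HOXB, 6 HOXC and 8 HOXD genes, 6 IRX, 8 LHX, 2 MSX, 9 PAX, 5 sine oculis and 2 BARHL genes. Within groups the members varied somewhat more than other genes: the median pooled SD was 0.21 for members and 0.18 for all genes tested, and 37 of the 57 lay above the value for all genes. DLX3 had a pooled SD of 0.54, higher than 99.2% of all genes tested, and HOXD8 one of 0.45.

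**Figure D1:**
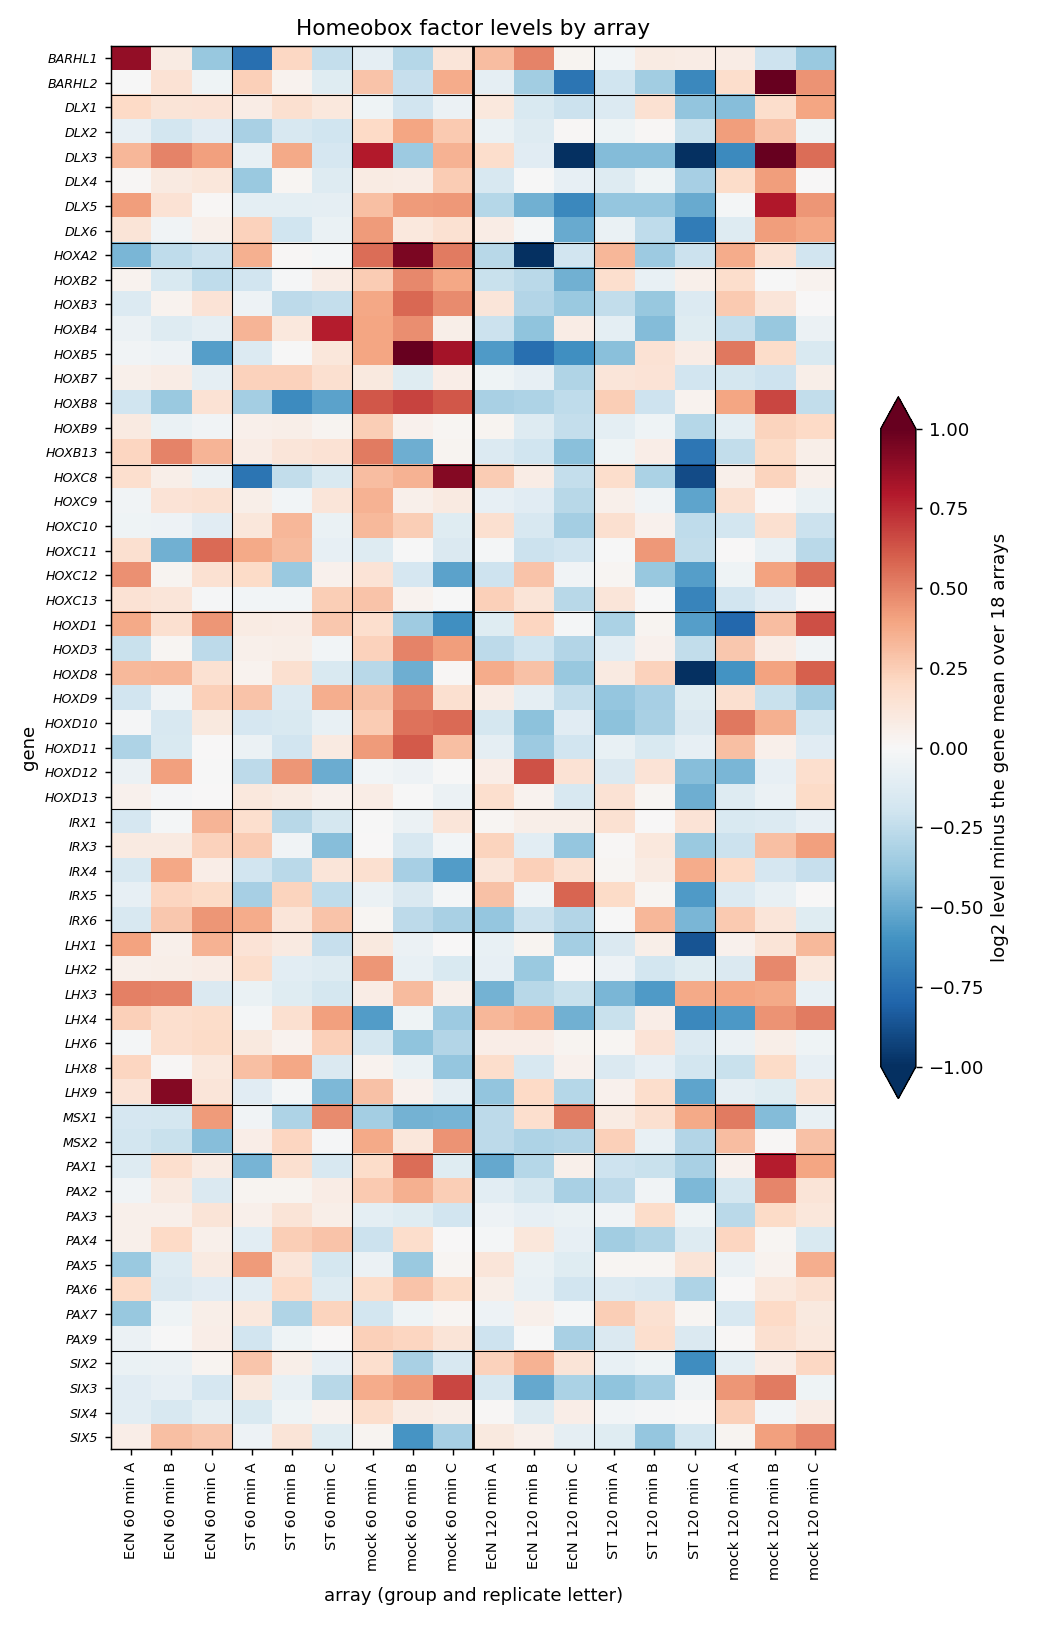
Levels of the 57 tested members on the 18 arrays, as the log2 level minus the gene's own mean over all arrays, with colours ending at 1 and -1. Columns run EcN, ST and mock at 60 min and then the same at 120 min, with letters A to C within a group, and horizontal lines separate the families. Several HOXB and HOXD rows are red in the mock 60 min columns and mostly nearer to the gene's mean in both flagellin groups at 60 min. DLX5 and BARHL2 are blue in the 120 min flagellin columns.

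At 60 min, 9 of the 23 tested HOX genes and 3 other members, DLX2, MSX2 and SIX3, were lower for the mean of both flagellins than in mock cells, and 1 member, LHX6, was higher. With EcN, 11 of 57 members passed limma's test at an adjusted p under 0.05, where 6.45% of all genes tested did. These were LHX6, which was higher (3.08% of all genes were), and 10 that were lower (3.37%): HOXA2, HOXB2, HOXB3, HOXB5, HOXB8, HOXD3, HOXD11, DLX2, MSX2 and SIX3. With ST, 10 of 57 passed, against 5.26% of all genes, with LHX6 again higher (2.23% of all genes were). The 9 that were lower were HOXB2, HOXB3, HOXB5, HOXB8, HOXC8, HOXD10, HOXD11, DLX2 and SIX3. For the mean of both flagellins against mock, 13 of 57 passed, or 22.8%, against 10.3% of all genes. Of all genes tested, 5.75% were lower in that comparison, beside 12 of the 57 members, and 4.53% were higher, beside 1 member. The median change over all 57 members was small, at -0.04 against 0.01 for all genes, and 31 of the 57 were below 0. Both flagellins were set against the same 3 mock arrays, so the resemblance of the lists is not a separate result.

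These counts turn on few arrays. Without mock 60 min replicate B, mock 60 min replicate C or EcN 60 min replicate B the EcN count was 0. Of all genes tested, 0.0434%, 0.0186% and 0% passed in these settings. The EcN count was 1 without EcN replicate C (0.503% of all genes) and 3 without EcN replicate A (1.5%). The ST count was 1 without mock 60 min replicate B, mock 60 min replicate C or ST replicate C. Of all genes, 0.782%, 0.49% and 0.826% passed there. The ST count was 2 without ST replicate A (0.937% of all genes) and 3 without ST replicate B (1.48%). For the mean of both flagellins the count was 4 without mock 60 min replicate B (2.68% of all genes) or C (2.18%). It was 11 to 15 without any other single array, where 7.05% to 14.1% of all genes passed. Without the 6 C arrays the counts were 0 for EcN, 1 for ST and 2 for the mean. The shares of all genes were then 0.0869%, 0.199% and 1.51%. With mock 120 min replicate A left out as well, the mock 120 min group keeps 1 array, and no count is given. For the mean of both flagellins, the calls of HOXB3 and HOXB8 held without any single array. The call of DLX2 or HOXD11 was lost without mock 60 min replicate B, and that of SIX3 without mock 60 min replicate C. Those of HOXA2, HOXB2, HOXB5, HOXD3, HOXD10 and LHX6 were lost without either of these arrays. None of the changes that passed the test turned its sign in any of the 29 other settings.

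In the HOXB cluster HOXB2, HOXB3, HOXB5 and HOXB8 were lower with each flagellin at 60 min. HOXB8 also acts in blood progenitors. At 60 min it measured 4.87, 4.70 and 5.21 with EcN, 4.73, 4.44 and 4.53 with ST, and 5.69, 5.75 and 5.68 in mock cells. Its log2 change was -0.78 ± 0.19 with EcN (SE, limma adjusted p = 0.0283) and -1.14 ± 0.19 with ST (adjusted p = 0.00766). All 6 flagellin arrays lay below all 3 mock arrays. The calls of HOXB8 for ST and for the mean of both flagellins held in all 29 other settings, and without the 6 C arrays its changes were -0.93 with EcN and -1.13 with ST. At 120 min HOXB8 measured 4.75, 4.76 and 4.81 with EcN and 5.31, 4.86 and 5.10 with ST, against 5.46, 5.74 and 4.82 in mock cells. There the groups overlapped, because the mock replicate C array lay among the flagellin arrays.

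HOXB5, which takes part in lung and gut development, measured 6.41, 6.40 and 5.90 with EcN and 6.31, 6.44 and 6.56 with ST, against 6.84, 7.45 and 7.28 in mock cells at 60 min. The change was -0.96 ± 0.20 with EcN (adjusted p = 0.0197) and -0.75 ± 0.20 with ST (adjusted p = 0.0391). Every flagellin array was below every mock array. HOXB3, a hindbrain-patterning gene, measured 6.70, 6.88 and 6.98 with EcN and 6.79, 6.58 and 6.60 with ST, against 7.23, 7.42 and 7.31 in mock cells, a change of -0.47 ± 0.13 with EcN (adjusted p = 0.0423) and -0.66 ± 0.13 with ST (adjusted p = 0.0145). HOXB2, which also patterns the hindbrain, measured 6.37, 6.18 and 6.08 with EcN and 6.15, 6.32 and 6.41 with ST, against 6.58, 6.82 and 6.72 in mock cells, a change of -0.50 ± 0.11 (adjusted p = 0.0246) and -0.42 ± 0.11 (adjusted p = 0.0433). For both genes the 6 flagellin arrays lay below the 3 mock arrays. At 120 min HOXB5 measured 5.88, 5.69 and 5.83 with EcN and 6.03, 6.59 and 6.52 with ST, against 6.98, 6.63 and 6.29 in mock cells. HOXB3 then measured 6.96, 6.55 and 6.47 with EcN and 6.59, 6.46 and 6.71 with ST, against 7.10, 6.96 and 6.85 in mock cells. HOXB2 measured 6.11, 6.06 and 5.85 with EcN and 6.50, 6.26 and 6.39 with ST, against 6.51, 6.33 and 6.37 in mock cells. At this time the 3 EcN arrays were below the 3 mock arrays for HOXB5 and HOXB2, and ST arrays overlapped mock for both.

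The other HOXB genes did not pass the test at 60 min. HOXB4, known for its use in expanding blood stem cells, measured 4.67, 4.60 and 4.63 with EcN and 5.06, 4.83 and 5.51 with ST, against 5.12, 5.19 and 4.78 in mock cells at 60 min. At 120 min it measured 4.51, 4.32 and 4.80 with EcN and 4.63, 4.29 and 4.60 with ST, against 4.49, 4.34 and 4.67 in mock cells. The 60 min EcN arrays were below mock, and the ST arrays overlapped it. HOXB13, a posterior gene known from the prostate, measured 6.30, 6.58 and 6.43 with EcN and 6.16, 6.21 and 6.23 with ST, against 6.60, 5.60 and 6.11 in mock cells at 60 min. At 120 min it measured 5.95, 5.89 and 5.67 with EcN and 6.05, 6.15 and 5.36 with ST, against 5.84, 6.28 and 6.14 in mock cells. Its mock arrays spanned the flagellin arrays at 60 min.

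HOXA2 was the only HOXA gene among the members. It sets the identity of the second branchial arch, and it measured 5.91, 6.12 and 6.15 with EcN and 6.73, 6.38 and 6.35 with ST, against 6.92, 7.31 and 6.89 in mock cells at 60 min. The change was -0.98 ± 0.23 with EcN (limma adjusted p = 0.025) and -0.56 ± 0.23 with ST (adjusted p = 0.153), which did not pass. All flagellin arrays were nonetheless below all mock arrays, and those of EcN were lowest. At 120 min HOXA2 measured 6.09, 5.31 and 6.18 with EcN and 6.70, 6.01 and 6.15 with ST, against 6.74, 6.51 and 6.17 in mock cells. The mock replicate B and C arrays then lay within the flagellin range.

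In the HOXC cluster HOXC8 was lower with ST. HOXC8, which patterns the trunk and its motor neurons, measured 5.82, 5.71 and 5.60 with EcN and 4.92, 5.41 and 5.50 with ST, against 5.96, 6.0 and 6.57 in mock cells at 60 min. The change was -0.90 ± 0.23 with ST (adjusted p = 0.0344) and -0.47 ± 0.23 with EcN (adjusted p = 0.22). The groups did not overlap, and at 120 min they did, with 5.90, 5.72 and 5.41 with EcN and 5.83, 5.34 and 4.76 with ST, against 5.71, 5.88 and 5.70 in mock cells. The call of HOXC8 for the mean of both flagellins was lost without any 1 of 7 of the 9 arrays at 60 min, the exceptions being EcN replicate A and ST replicate C. HOXC12, a posterior member of the cluster, measured 3.98, 3.55 and 3.68 with EcN and 3.72, 3.15 and 3.57 with ST, against 3.66, 3.36 and 3.0 in mock cells at 60 min. At 120 min it measured 3.32, 3.81 and 3.49 with EcN and 3.55, 3.15 and 2.98 with ST, against 3.49, 3.93 and 4.09 in mock cells. HOXC11, its neighbour in the series, was near the array medians, with 2.44, 1.81 and 2.85 with EcN and 2.66, 2.60 and 2.20 with ST, against 2.16, 2.28 and 2.14 in mock cells at 60 min. At 120 min HOXC11 measured 2.26, 2.07 and 2.10 with EcN and 2.28, 2.72 and 2.04 with ST, against 2.29, 2.21 and 2.02 in mock cells. Neither HOXC11 nor HOXC12 passed the test at 60 min.

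In the HOXD cluster HOXD3, HOXD10 and HOXD11 were lower at 60 min. HOXD11, which with its paralogues shapes the forearm and the kidney, measured 8.05, 8.20 and 8.36 with EcN and 8.30, 8.17 and 8.45 with ST, against 8.79, 8.97 and 8.66 in mock cells at 60 min, a change of -0.60 ± 0.13 with EcN (adjusted p = 0.0199) and -0.50 ± 0.13 with ST (adjusted p = 0.0327). HOXD10, which acts in hindlimb motor neurons, measured 10.24, 10.09 and 10.35 with EcN and 10.09, 10.11 and 10.18 with ST, against 10.51, 10.79 and 10.82 in mock cells, a change of -0.58 ± 0.15 with ST (adjusted p = 0.0391) and -0.48 ± 0.15 with EcN (adjusted p = 0.0684). HOXD3, an anterior gene of the cluster, measured 4.30, 4.55 and 4.26 with EcN and 4.58, 4.58 and 4.49 with ST, against 4.76, 5.02 and 4.94 in mock cells, a change of -0.54 ± 0.11 with EcN (adjusted p = 0.0197) and -0.36 ± 0.11 with ST (adjusted p = 0.0698). In all 3 genes the flagellin arrays lay below the mock arrays without overlap. At 120 min HOXD11 measured 8.26, 7.99 and 8.17 with EcN and 8.28, 8.20 and 8.28 with ST, against 8.66, 8.41 and 8.24 in mock cells. HOXD10 measured 10.08, 9.84 and 10.14 with EcN and 9.84, 9.93 and 10.11 with ST, against 10.78, 10.61 and 10.07 in mock cells. HOXD3 measured 4.26, 4.33 and 4.23 with EcN and 4.42, 4.56 and 4.28 with ST, against 4.79, 4.59 and 4.49 in mock cells. The mock replicate C array fell among the flagellin arrays in each of these 3 genes at 120 min.

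HOXD1 and HOXD8 lay on the other side of 0 at 60 min without passing the test. HOXD1, at the anterior end of the cluster, measured 4.23, 4.01 and 4.30 with EcN and 3.93, 3.92 and 4.12 with ST, against 4.02, 3.50 and 3.24 in mock cells. At 120 min HOXD1 measured 3.73, 4.07 and 3.83 with EcN and 3.54, 3.88 and 3.30 with ST, against 3.07, 4.16 and 4.50 in mock cells, where the array labelled mock 120 min replicate A was lowest. HOXD8 measured 6.48, 6.49 and 6.32 with EcN and 6.19, 6.32 and 6.01 with ST, against 5.88, 5.67 and 6.17 in mock cells at 60 min. At 120 min the same gene measured 6.53, 6.46 and 5.78 with EcN and 6.25, 6.39 and 5.06 with ST, against 5.56, 6.56 and 6.76 in mock cells. At 120 min the array labelled mock replicate A and the flagellin C arrays, which were also the arrays with high NFKBIA, had the lowest HOXD8 of their groups, and the part of those arrays in the result was not tested.

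**Figure D2:**
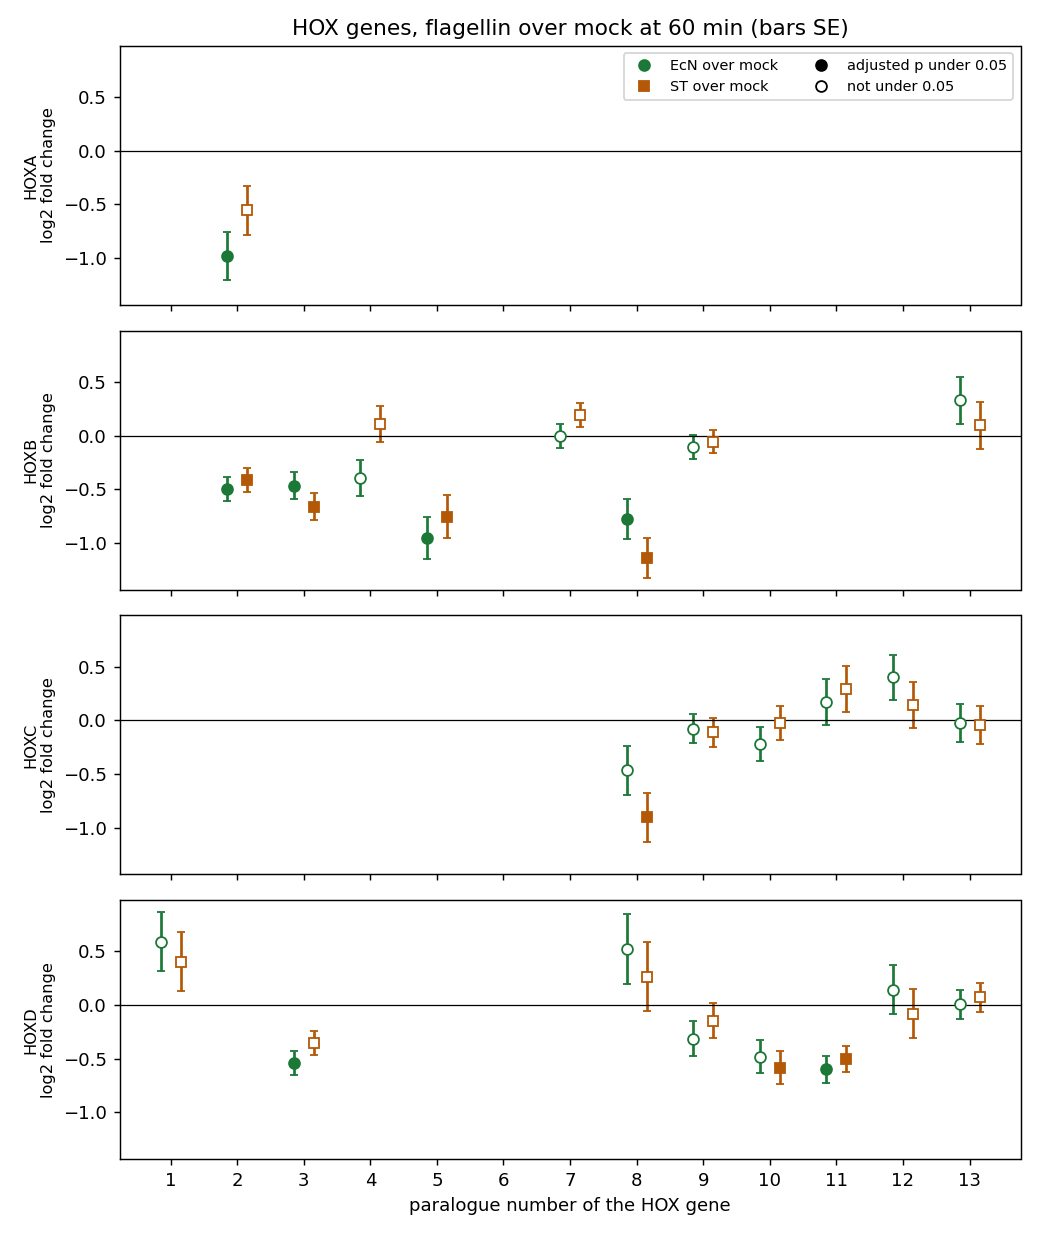
Log2 fold change of each of the 23 tested HOX genes at 60 min, EcN over mock (circles) and ST over mock (squares), by cluster and paralogue number. Bars are SE, and filled symbols mark an adjusted p under 0.05. Filled symbols all lie below 0, at HOXA2, HOXB2, HOXB3, HOXB5, HOXB8, HOXC8, HOXD3, HOXD10 and HOXD11, and paralogue numbers with no symbol were not tested.

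Over all 4 clusters, 7 of the 23 tested HOX genes were lower with EcN and 7 with ST at 60 min, 9 were lower for the mean of both flagellins, and 0 were higher. The background of lower genes was 3.37% for EcN, 3.03% for ST and 5.75% for the mean. By an unadjusted p under 0.05 the wider set of 57 members had 17 lower and 7 higher for the mean, where 13.9% of all genes were lower and 13.1% higher. The median change of the 23 HOX genes was -0.22 with EcN and -0.08 with ST, against 0.01 and 0.00 for all genes tested. In mock cells, without flagellin, the same 23 genes had a median of -0.22 for 120 over 60 min, with 18 of 23 below 0, and that comparison uses the same mock 60 min arrays.

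Promoter sequence was at hand for 36 of the 62 members, from RefSeq on GRCh38.p14, as 250 bases before to 50 after the annotated gene start. TAATTA, which holds the TAAT core that many homeodomains bind and reads the same on both strands, was searched in them. It stood in 3 of the 36, or 8.33%, against 4.98% of 27305 promoters of the same length. The 3 are shown as the members that hold it, HOXD3, HOXD11 and MSX2, and capitals mark the motif. All 3 were lower for the mean of both flagellins at 60 min, though HOXD3 and MSX2 did not pass with ST alone. HOXA2, HOXD10 and DLX2, whose promoters hold 0 copies, were lower for the mean as well. No promoter was at hand for HOXB2, HOXB3, HOXB5, HOXB8, HOXC8 and SIX3, the other members lower there. They lie on the plus strand at chr2:176157057-176157356 for HOXD3, chr2:176107030-176107329 for HOXD11 and chr5:174724332-174724631 for MSX2.
HOXD3: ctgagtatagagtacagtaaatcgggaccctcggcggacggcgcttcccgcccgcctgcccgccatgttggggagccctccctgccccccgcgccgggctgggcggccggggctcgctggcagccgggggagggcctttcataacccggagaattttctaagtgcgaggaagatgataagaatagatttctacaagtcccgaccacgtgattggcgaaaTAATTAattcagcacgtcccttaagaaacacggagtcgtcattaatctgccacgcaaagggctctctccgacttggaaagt
HOXD11: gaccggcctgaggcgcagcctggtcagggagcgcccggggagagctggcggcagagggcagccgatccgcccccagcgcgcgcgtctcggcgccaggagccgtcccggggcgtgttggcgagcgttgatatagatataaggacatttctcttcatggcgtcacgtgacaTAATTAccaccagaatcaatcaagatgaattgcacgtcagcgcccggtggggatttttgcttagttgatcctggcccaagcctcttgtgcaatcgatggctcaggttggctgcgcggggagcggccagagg
MSX2: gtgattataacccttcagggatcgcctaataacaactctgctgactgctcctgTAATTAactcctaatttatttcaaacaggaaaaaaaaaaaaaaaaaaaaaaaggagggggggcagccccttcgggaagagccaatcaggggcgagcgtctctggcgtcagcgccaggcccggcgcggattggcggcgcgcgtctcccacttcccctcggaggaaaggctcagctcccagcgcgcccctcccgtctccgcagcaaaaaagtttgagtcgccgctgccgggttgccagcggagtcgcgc
The motif begins at position -31 from the gene start in HOXD3, -81 in HOXD11 and -197 in MSX2. The TATA box core TATAAA, searched on both strands, stood in 2 of the 36 (HOXD13 and PAX5), or 5.56%, against 12% of all promoters. A loose NF-kB motif, searched on both strands as well, stood in 26 of the 36, or 72.2%, against 58.0% of all promoters. The members' promoters had a median GC content of 63.0%, against 58.3% for all, and the part of base composition in these shares was not tested. A match of letters is a description of the sequence and not a binding site.

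DLX2 was the DLX gene that passed at 60 min. DLX2, which with DLX1 directs interneurons and the first branchial arch, measured 9.72, 9.62 and 9.70 with EcN and 9.48, 9.64 and 9.61 with ST, against 10.01, 10.20 and 10.07 in mock cells. The change was -0.41 ± 0.11 with EcN (limma adjusted p = 0.0412) and -0.51 ± 0.11 with ST (adjusted p = 0.0207), and the groups did not overlap. At 120 min DLX2 measured 9.74, 9.68 and 9.82 with EcN and 9.76, 9.82 and 9.59 with ST, against 10.22, 10.09 and 9.76 in mock cells, where mock replicate C lay among the flagellin arrays. MSX2, a BMP-responsive gene of skull and limb, measured 4.73, 4.69 and 4.49 with EcN and 4.98, 5.13 and 4.90 with ST, against 5.30, 5.03 and 5.36 in mock cells at 60 min. Its change was -0.59 ± 0.13 with EcN (adjusted p = 0.0246) and -0.23 ± 0.13 with ST (adjusted p = 0.344). The ST arrays overlapped mock. At 120 min MSX2 measured 4.65, 4.61 and 4.62 with EcN and 5.15, 4.85 and 4.63 with ST, against 5.22, 4.92 and 5.21 in mock cells, with all 3 EcN arrays below mock. The call of MSX2 for the mean of both flagellins was lost without mock 60 min replicate A or C, EcN replicate B or C, or ST replicate A or C.

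SIX3, a forebrain and eye gene that represses WNT signalling, was lower with both flagellins at 60 min. It measured 5.47, 5.50 and 5.42 with EcN and 5.68, 5.51 and 5.31 with ST, against 5.95, 6.01 and 6.25 in mock cells, a change of -0.61 ± 0.15 (adjusted p = 0.0316) and -0.57 ± 0.15 (adjusted p = 0.0403). No flagellin array reached a mock array. At 120 min SIX3 measured 5.43, 5.07 and 5.27 with EcN and 5.18, 5.25 and 5.54 with ST, against 6.02, 6.10 and 5.54 in mock cells. Mock replicate C lay level with the highest ST array. LHX6, which marks interneurons derived from the medial ganglionic eminence, was higher with both flagellins at 60 min, at 3.20, 3.39 and 3.41 with EcN and 3.32, 3.26 and 3.46 with ST, against 3.05, 2.82 and 2.93 in mock cells. Its change was 0.40 ± 0.10 with EcN (adjusted p = 0.0289) and 0.41 ± 0.10 with ST (adjusted p = 0.0263), with no overlap. At 120 min LHX6 measured 3.29, 3.29 and 3.25 with EcN and 3.24, 3.35 and 3.08 with ST, against 3.16, 3.28 and 3.18 in mock cells, and the groups overlapped.

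**Figure D3:**
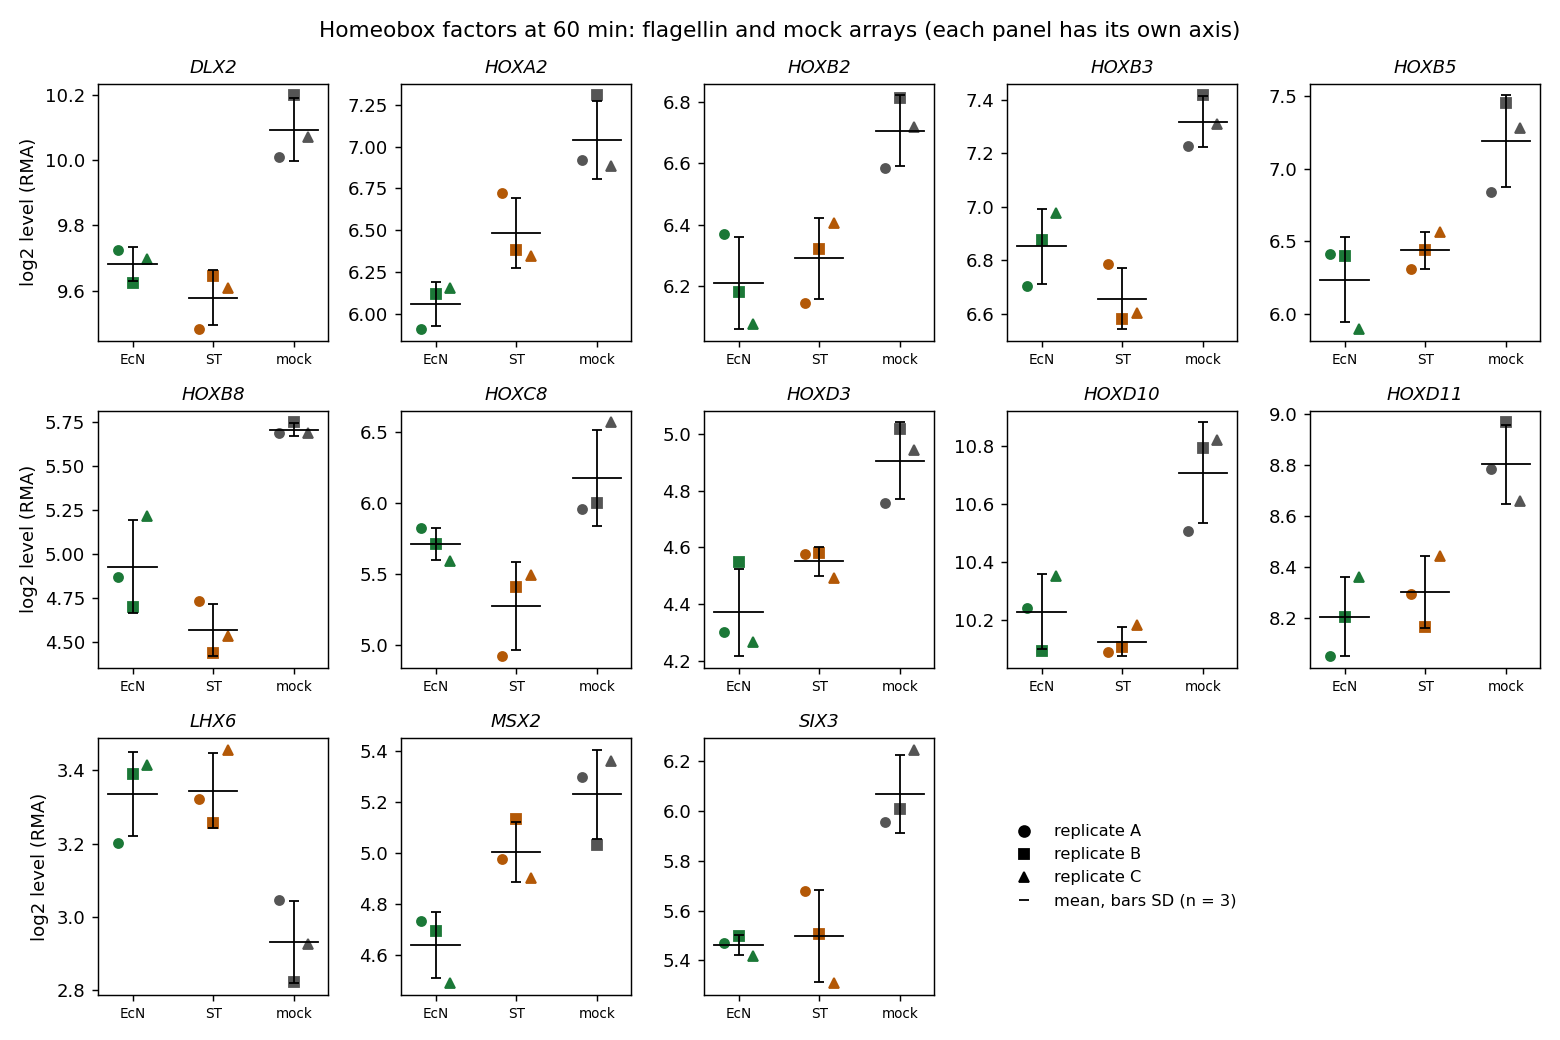
The 13 members that passed the test for the mean flagellin effect at 60 min, with the log2 level on the vertical axis and EcN, ST and mock along the horizontal axis. Symbols are single arrays by replicate letter, lines are means and bars SD (n = 3), and each panel has its own axis. LHX6 is higher in both flagellin groups, and the other 12 are lower in the mean of both.

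Of the 57 members, 14 (24.6%) had all 6 flagellin arrays below all 3 mock arrays at 60 min, where 9.4% of all genes did, and 5 (8.77%) had all 6 above, against 8.22%. Besides 11 of the 12 members lower by the test, the 14 held PAX2, PAX9 and SIX4. The 5 above were LHX6, DLX1, LHX4, MSX1 and PAX3. PAX2, a kidney duct gene, measured 5.64, 5.77 and 5.54 with EcN and 5.71, 5.71 and 5.75 with ST, against 5.94, 6.03 and 5.93 in mock cells at 60 min. At 120 min PAX2 measured 5.58, 5.50 and 5.36 with EcN and 5.41, 5.64 and 5.23 with ST, against 5.51, 6.17 and 5.81 in mock cells. Its change at 60 min did not pass, at -0.28 ± 0.12 for the mean (limma adjusted p = 0.151). LHX4, a pituitary and motor neuron gene, measured 4.11, 4.04 and 4.06 with EcN and 3.85, 4.03 and 4.28 with ST, against 3.31, 3.83 and 3.51 in mock cells at 60 min. At 120 min LHX4 measured 4.20, 4.24 and 3.39 with EcN and 3.65, 3.93 and 3.23 with ST, against 3.30, 4.32 and 4.39 in mock cells. As with HOXD8, the C arrays of the flagellin groups and the array labelled mock 120 min replicate A were low at 120 min.

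MSX1, the paralogue of MSX2 and likewise a BMP-responsive repressor, was highest on the arrays with high NFKBIA, whatever their label. At 60 min MSX1 measured 5.22, 5.21 and 5.81 with EcN and 5.35, 5.07 and 5.86 with ST, against 5.05, 4.91 and 4.92 in mock cells. At 120 min MSX1 measured 5.12, 5.55 and 5.90 with EcN and 5.47, 5.54 and 5.76 with ST, against 5.90, 4.95 and 5.31 in mock cells. The 5 arrays highest in MSX1 were the 5 highest in NFKBIA, at 5.76 to 5.90 against at most 5.55 on the other 13 arrays. Of all genes tested, 26 (0.161%) had these 5 arrays on top, and MSX1 was the member among them. This was seen in the values and was not tested.

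**Figure D4:**
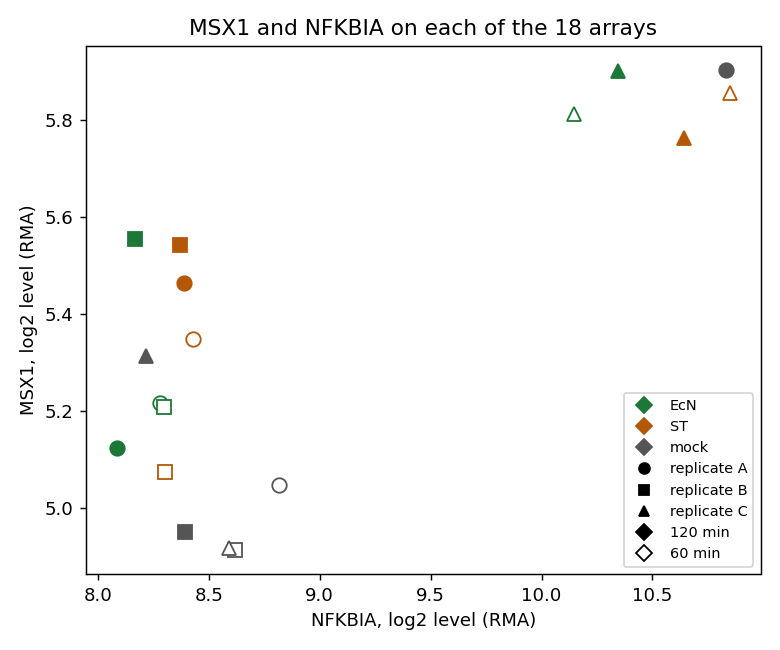
Log2 level of MSX1 (vertical axis) against that of NFKBIA (horizontal axis), 1 point per array, with colours for treatment, shapes for replicate letter and open symbols for 60 min. The 5 arrays with high NFKBIA include 1 labelled mock (120 min replicate A), and their MSX1 levels of 5.76 to 5.90 lie above those of the other 13 arrays.

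No member passed the test of ST against EcN at either time. At 60 min 0 of 57 members passed in limma, and 0% of all genes did, while 2 were higher and 1 lower by an unadjusted p under 0.05 (HOXB4 and MSX2, and LHX9), where 4.16% of all genes were higher and 5.03% lower. At 120 min 0 passed again, against 0% of all genes, with HOXB2 and HOXB5 higher and SIX2 lower by the unadjusted p, where 5.3% of all genes were higher and 6.38% lower. Differences of some size remain possible within the intervals. The 95% interval of ST minus EcN at 60 min ran from -0.75 to 0.04 for HOXB8, from -0.92 to 0.05 for HOXC8 and from -0.05 to 0.90 for HOXA2. For HOXB5 it ran from -0.22 to 0.62 at 60 min and from 0.16 to 1.00 at 120 min. LHX9, a gonad and limb gene, measured 2.74, 2.83 and 2.40 with ST and 2.99, 3.77 and 2.97 with EcN at 60 min, against 3.15, 2.90 and 2.76 in mock cells. At 120 min LHX9 measured 2.89, 3.03 and 2.32 with ST and 2.46, 3.05 and 2.57 with EcN, against 2.76, 2.73 and 3.01 in mock cells. SIX2, which keeps nephron progenitors, measured 6.72, 6.75 and 6.17 with ST and 7.02, 7.14 and 6.92 with EcN at 120 min, against 6.69, 6.87 and 7.0 in mock cells. At 60 min SIX2 measured 7.07, 6.85 and 6.71 with ST and 6.73, 6.74 and 6.82 with EcN, against 6.96, 6.47 and 6.63 in mock cells.

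At 120 min, DLX5 and BARHL2 were lower with both flagellins, as the choice of families fixed. DLX5, which drives bone and craniofacial development, measured 5.48, 5.29 and 5.13 with EcN and 5.39, 5.38 and 5.27 with ST, against 5.75, 6.58 and 6.22 in mock cells, or -0.88 with EcN and -0.83 with ST. BARHL2, a gene of neurons in the retina and forebrain, measured 5.34, 5.08 and 4.70 with EcN and 5.23, 5.09 and 4.79 with ST, against 5.61, 6.48 and 5.88 in mock cells, or -0.95 with each. All 6 flagellin arrays were below all 3 mock arrays for both genes, and the nearest mock array was the one labelled replicate A. As with HOXD8 and LHX4, that array and the flagellin C arrays were the lowest of their groups at 120 min in both genes. These were the arrays with high NFKBIA, and their part in the result was not tested. Without the 6 C arrays the changes for the mean were -0.78 for DLX5 and -0.86 for BARHL2. With the array labelled mock replicate A left out as well they were -1.19 and -1.29. That setting keeps only replicate B of the mock 120 min group, which was the highest mock array for both genes.

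At 60 min, which the choice did not use, neither gene passed. DLX5 measured 6.19, 5.92 and 5.79 with EcN and 5.67, 5.68 and 5.68 with ST, against 6.07, 6.20 and 6.20 in mock cells. The change was -0.19 ± 0.16 with EcN (limma adjusted p = 0.492) and -0.48 ± 0.16 with ST (adjusted p = 0.088). All ST arrays lay below mock, while EcN arrays overlapped it. BARHL2 measured 5.43, 5.58 and 5.39 with EcN and 5.67, 5.47 and 5.32 with ST, against 5.72, 5.21 and 5.81 in mock cells, a change of -0.11 ± 0.21 (adjusted p = 0.797) and -0.09 ± 0.21 (adjusted p = 0.844). Mock arrays spanned the flagellin arrays for BARHL2. Its paralogue BARHL1 measured 3.91, 3.12 and 2.65 with EcN and 2.28, 3.24 and 2.80 with ST, against 2.94, 2.75 and 3.16 in mock cells at 60 min. At 120 min BARHL1 measured 3.35, 3.53 and 3.06 with EcN and 3.01, 3.12 and 3.11 with ST, against 3.11, 2.83 and 2.66 in mock cells, and the groups overlapped.

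DLX6, the genomic neighbour of DLX5, measured 6.11, 6.01 and 5.53 with EcN and 5.97, 5.78 and 5.33 with ST, against 5.91, 6.45 and 6.42 in mock cells at 120 min. At 60 min DLX6 measured 6.17, 6.0 and 6.09 with EcN and 6.27, 5.84 and 5.97 with ST, against 6.46, 6.14 and 6.19 in mock cells. DLX6 overlapped mock at both times, at 120 min through the array labelled mock replicate A. DLX3, an epidermis and placenta gene, measured 6.24, 5.95 and 4.98 with EcN and 5.63, 5.63 and 4.87 with ST, against 5.43, 7.06 and 6.63 in mock cells at 120 min. At 60 min DLX3 measured 6.39, 6.56 and 6.47 with EcN and 5.99, 6.45 and 5.90 with ST, against 6.86, 5.70 and 6.41 in mock cells. The groups overlapped in DLX3 at both times. In DLX3 and DLX6 too, the array labelled mock replicate A and the flagellin C arrays were the lowest of their groups at 120 min. PAX1, a gene of the vertebral column and thymus, measured 2.27, 2.50 and 2.84 with EcN and 2.58, 2.56 and 2.46 with ST, against 2.83, 3.57 and 3.18 in mock cells at 120 min. At 60 min PAX1 measured 2.66, 2.96 and 2.87 with EcN and 2.32, 2.95 and 2.62 with ST, against 2.97, 3.34 and 2.66 in mock cells. SIX5, linked to myotonic dystrophy, measured 4.26, 4.22 and 4.08 with EcN and 4.05, 3.79 and 3.98 with ST, against 4.20, 4.58 and 4.66 in mock cells at 120 min. At 60 min SIX5 measured 4.23, 4.47 and 4.44 with EcN and 4.12, 4.30 and 4.05 with ST, against 4.20, 3.58 and 3.84 in mock cells. SIX5 lay above the mock mean at 60 min and below it at 120 min, and neither change passed at 60 min.

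**Figure D5:**
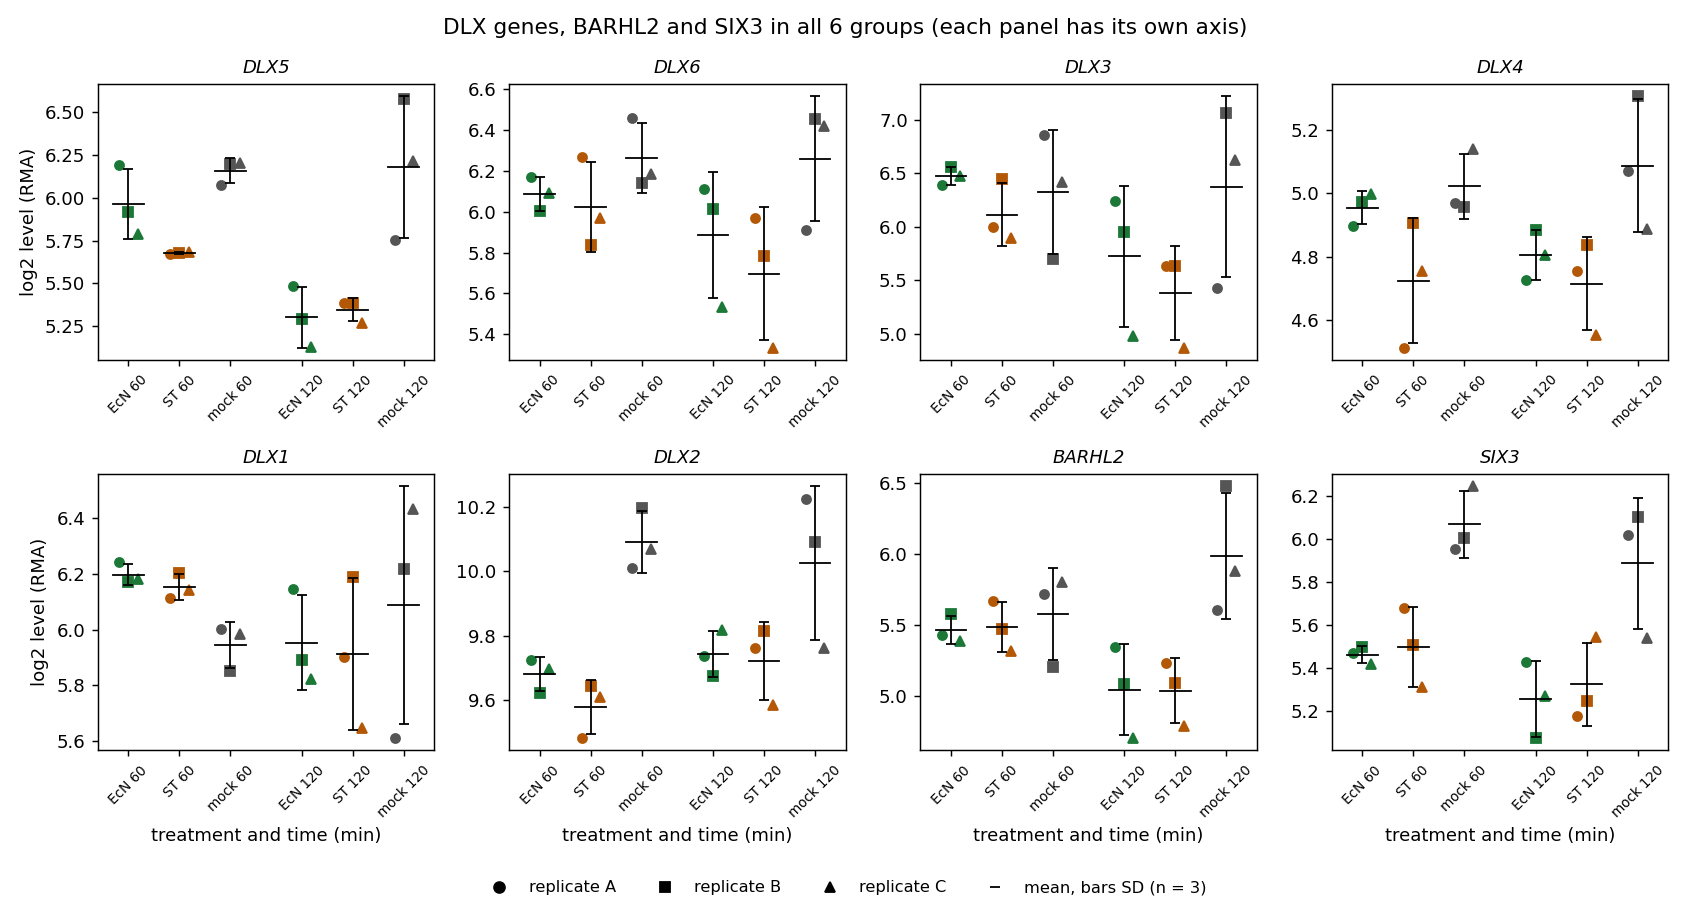
Log2 levels of the 6 DLX genes, BARHL2 and SIX3 in EcN, ST and mock arrays at 60 min and then at 120 min (horizontal axis), with symbols for replicate letters, lines for means and bars for SD (n = 3). Each panel has its own vertical axis. DLX5 and BARHL2 show flagellin arrays below all mock arrays at 120 min, while DLX3, DLX6 and SIX3 do not separate fully.

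Counts at 120 min are given beside their background, and nothing is read from them because the members were chosen on this contrast. With EcN 0 of 57 passed in limma, against 0.0621% of all genes (0.0248% higher and 0.0372% lower), and 18 were lower and 0 higher by an unadjusted p under 0.05, where 8.28% of all genes were lower and 8.24% higher. With ST 1 of 57 passed (DLX5, lower), against 0.559% of all genes (0.31% higher and 0.248% lower). By the unadjusted p 17 were lower and 0 higher with ST, where 8.57% of all genes were lower and 8.99% higher. For the mean of both 3 passed (DLX5, BARHL2 and SIX3, all lower), against 0.732% (0.422% higher and 0.31% lower). The unadjusted p gave 24 lower and 0 higher for the mean, where 9.38% of all genes were lower and 9.3% higher. Members below 0 numbered 44 for EcN, 46 for ST and 44 for the mean, with medians of -0.19, -0.24 and -0.23. Of all genes, 50.7%, 49.7% and 49.9% were above 0, with medians of 0.003, -0.001 and -0.0003. DLX5, BARHL2 and DLX4 (5.26%) had all 6 flagellin arrays below all mock arrays, where 2.92% of all genes did, and IRX1 (1.75%) had them above, where 3.13% did. The counts moved with single mock arrays. Without mock 120 min replicate C there were 8 for EcN, 6 for ST and 8 for the mean, where 7.31%, 4.44% and 7.74% of all genes passed. Without mock 120 min replicate B there were 0, 0 and 0, against 0% of all genes each time. The counts were 2, 8 and 6 without the array labelled mock 120 min replicate A, against 0.236%, 5.62% and 3.41% of all genes. The mean count was also 0 without EcN 120 min replicate B or C, where 0% of all genes passed. It was 1 without ST 60 min replicate B (0.205% of all genes), ST 120 min replicate A (0.211%) or ST 120 min replicate B (0.18%). The ST count of 1 fell to 0 without mock 60 min replicate B, EcN 120 min replicate B or any single ST array. In these settings 0% to 0.261% of all genes passed for ST.

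Time alone was compared in mock cells, 120 over 60 min. By limma 0 of 57 members passed, against 0% of all genes, with 3 higher and 8 lower by an unadjusted p under 0.05, where 5.97% of all genes were higher and 6.13% lower. The 8 were HOXA2, HOXB2, HOXB3, HOXB4, HOXB5, HOXD3, HOXD9 and HOXD11. This comparison and those of flagellin with mock at 60 min share the mock 60 min arrays. Over time in mock cells HOXD11 differed by -0.37 and HOXB2 by -0.30, beside -0.60 and -0.50 with EcN over mock at 60 min. HOXB5 measured 6.98, 6.63 and 6.29 in mock cells at 120 min, against 6.84, 7.45 and 7.28 at 60 min, a difference of -0.56 ± 0.20 (adjusted p = 0.306). Without the array labelled mock 120 min replicate A, 5 members passed, where 6.08% of all genes did. These were HOXB5 (-0.73), HOXD9 (-0.60) and HOXD11 (-0.48), which were lower, and HOXD1 (0.74) and SIX5 (0.75), which were higher at 120 than at 60 min.

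The change of the mean flagellin effect from 60 to 120 min draws on the contrast behind the choice and is a description. By limma 0 of 57 members passed, against 0% of all genes, and 1 was higher and 8 lower by an unadjusted p under 0.05, where 6.86% of all genes were higher and 6.88% lower. The values were -0.85 for BARHL2, -0.52 for DLX5 and -0.81 for SIX5, against 0.55 for HOXB8. Without the array labelled mock 120 min replicate A, 7 passed, where 6.65% of all genes did: BARHL2, DLX1, DLX5, HOXD1, LHX4, PAX3 and SIX5.

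Among the IRX genes, which pattern heart, brain and nephron, IRX6 measured 3.74, 4.17 and 4.34 with EcN and 4.27, 4.02 and 4.19 with ST, against 3.92, 3.64 and 3.58 in mock cells at 60 min. At 120 min IRX6 measured 3.52, 3.69 and 3.61 with EcN and 3.90, 4.24 and 3.45 with ST, against 4.17, 4.02 and 3.78 in mock cells. The EcN arrays of IRX6 overlapped mock at 60 min and lay below it at 120 min. IRX5 measured 4.18, 4.47 and 4.45 with EcN and 3.93, 4.48 and 4.0 with ST, against 4.21, 4.12 and 4.24 in mock cells at 60 min. At 120 min IRX5 measured 4.55, 4.22 and 4.84 with EcN and 4.45, 4.28 and 3.69 with ST, against 4.12, 4.19 and 4.26 in mock cells. With all 18 arrays in the fit, no IRX or PAX gene passed in any comparison. The 24 members not described one by one had log2 changes from -0.56 to 0.41 over the 10 comparisons.

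Genes that act upstream of or beside these factors were examined as lists, for the mean of both flagellins at 60 min, where 5.75% of all genes were lower and 4.53% higher by the test. Polycomb repressors, which silence HOX and other developmental genes, had 13 of 18 members tested. For the mean of both flagellins at 60 min 4 were lower and 0 higher, namely PCGF2, CBX6, PHC3 and SUZ12, with a list median of -0.12 against 0.01 for all genes. PCGF2, a subunit of the first Polycomb complex, measured 8.70, 8.75 and 8.79 with EcN and 8.60, 8.66 and 8.55 with ST, against 9.36, 9.35 and 9.31 in mock cells. Its change was -0.59 ± 0.13 with EcN (limma adjusted p = 0.0246) and -0.74 ± 0.13 with ST (adjusted p = 0.012), without overlap. Trithorax and MLL activators of HOX genes had 9 tested and 0 called, with 1 higher and 2 lower by an unadjusted p under 0.05 (13.1% and 13.9% of all genes). TALE cofactors, the PBX and MEIS partners of HOX proteins, had 8 tested and 0 called, with 1 higher by the unadjusted p.

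In the retinoic acid pathway, which switches on anterior HOX genes, 1 of 13 tested genes was higher and 2 lower for the mean at 60 min. RARB, a receptor that retinoic acid induces, was higher by 0.87 ± 0.22 (adjusted p = 0.0227), while the receptor RARA was lower at -0.47 ± 0.12 (adjusted p = 0.0203) and RDH10, which makes retinal from retinol, at -0.44 ± 0.11 (adjusted p = 0.0181). Among BMP and WNT inputs to DLX and MSX genes, 2 of 14 were lower, the receptor BMPR2 at -0.55 ± 0.09 (adjusted p = 0.0058) and the WNT effector TCF7L2 at -0.59 ± 0.13 (adjusted p = 0.0126). Of the partners of sine oculis and LHX proteins 1 of 14 was lower, EYA3 at -0.46 ± 0.12 (adjusted p = 0.024). Of 46 other homeobox factors 4 were lower (ADNP, BARX2, ONECUT2 and POU4F1) and 1 higher (ZEB2), with a median of -0.07.

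Marker lists describe the cultures. Of 15 HEK293 and kidney markers 14 were measured, and 12 of these lay above the median on all arrays. So did 3 of 9 measured leukocyte markers, 2 of 8 fibroblast markers and 4 of 10 intestinal markers. For the mean at 60 min SALL1 was lower (-0.63 ± 0.11, adjusted p = 0.00583) and KRT18 higher (0.45 ± 0.11, adjusted p = 0.0172) among 13 HEK293 and kidney markers tested. The defining leukocyte marker PTPRC and CD4, LYZ and ITGAM lay above the median on no array, as did the fibroblast genes COL1A2, DCN, FAP and POSTN and the intestinal genes FABP1, FABP2 and KRT20. The mean level of the leukocyte list ranged from 2.77 to 2.98 with EcN, from 2.84 to 2.93 with ST and from 2.83 to 2.89 in mock cells at 60 min. Called markers of these types for the mean at 60 min were CD68 among 3 leukocyte genes tested, 0 of 4 fibroblast and 0 of 6 intestinal genes, the last with 1 higher and 2 lower by the unadjusted p and the fibroblast genes with 0. Of 7 reference genes B2M was higher (0.46 ± 0.09, adjusted p = 0.00868) and HPRT1 lower (-0.34 ± 0.10, adjusted p = 0.0467).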

How the data were processed

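Total RNA was hybridised to 18 Affymetrix arrays, 3 for each of 6 groups, and this number limits the precision. The deposited values are log2 levels, which the authors made with RMA (oligo 1.30.0) per the submitters' processing notes. The table has 53617 rows, array medians lay between 2.27 and 2.32, and no further normalization was applied. Rows were named through the platform annotation: 23871 had 1 symbol, 1842 several (left out) and 27904 were not listed there. Of the symbols, 655 were updated through Entrez identifiers in the RefSeq gene table of GRCh38.p14, used for names.

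Rows above their array's median on at least 3 arrays were kept, and the row with the highest mean stood for a gene (399 genes had several). limma 3.58.1 in R 4.3.3 fitted 6 group means over 16111 genes with 12 residual and 4.20 prior degrees of freedom. Tests are two-sided, with Benjamini-Hochberg adjusted p-values over all genes within each of 10 comparisons and calls under 0.05. The fit was run on simulated data with independent noise on each array. Such data cannot show how deviations shared between arrays affect the calls.

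Values on every array are given for DLX5, BARHL2, each member called in any comparison, and up to 2 further members per family with the largest absolute log2 fold change. From each list the called genes up to 4 per comparison could be named. The members, lists and alternatives were chosen with earlier results of these data known. Alternatives were centring, repeated quantile normalization, other filters, the mean of a gene's rows, trend and robust fitting, array weights, a replicate block, the compared groups alone, and leaving out arrays.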

Additional observations from a re-analysis of the deposited data

How the results depend on the processing

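The number of arrays limits all counts, and no change that passed the test reversed its sign in any of 29 other settings. Counts of members called at 60 min were 11 for EcN, 10 for ST and 13 for the mean of both over mock. The shares of all genes called were 6.45%, 5.26% and 10.3%. Without the 6 C arrays the counts were 0, 1 and 2, against 0.0869%, 0.199% and 1.51% of all genes. The ST count was 5 with only the groups compared, against 3.71% of all genes. The letters were not treated as pairing the arrays, since 10 of 45 same-letter pairs had correlated deviations over 0.1 and 7 of 18 arrays correlated best with their own letter. The 18 such pairs between flagellin groups were all above 0 (0.014 to 0.273), while 19 of 27 with a mock array were below 0, and the array labelled mock 120 min replicate A had 0.162 to 0.345 with the 4 flagellin C arrays. With the letter as a replicate block the counts at 60 min were 9, 5 and 12, against 4.72%, 4.11% and 8.75% of all genes. At 120 min this block gave 0, 1 and 2, against 0.0248%, 0.509% and 0.596%. At 120 min the EcN count of 0 became 1 with centred arrays (0.205% of all genes) and 4 with trend and robust fitting (1.33%). It became 1 with array weights (0.0745%) and 2 without the C arrays (0.77%). The ST count of 1 became 2 with centring (0.689% of all genes), with trend and robust fitting (1.85%) and with array weights (1.05%). It became 0 without the C arrays (0%) or with only the groups compared (0.0186%). The mean count of 3 became 0 with only the groups compared, where 0% of all genes passed. Leaving out 1 array gave 0 to 13 (EcN), 1 to 12 (ST) and 4 to 15 (mean) at 60 min. The shares of all genes ran from 0% to 11.5%, 0.49% to 8.45% and 2.18% to 14.1%. At 120 min each count was 0 to 8, with shares up to 7.31% (EcN), 5.62% (ST) and 7.74% (mean). ST over EcN gave 0 to 0 at both times, with shares up to 0.00621% at 60 min and 0.0559% at 120 min. Counts were 0 to 5 for mock 120 over 60 min (up to 6.08% of all genes) and 0 to 7 for the change of effect (up to 6.65%). Fewer arrays are fitted where arrays are left out or only the compared groups are used. The cause of the shifts was not tested.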

Other observations

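Rows of the same families that the rule left out, because they carry several symbols or a symbol that is more than a family name and a number (antisense genes, a pseudogene and a divergent transcript), were tested in a fit over all 30449 rows that passed the filter. There were 15 such rows and 12 passed. By limma 0 of 12 were called in any of 10 comparisons, where 2.2% of the 30449 rows were called at 60 min for EcN, 2.62% for ST and 5.86% for the mean of both over mock. For the mean flagellin effect at 60 min 1 was higher and 1 lower by an unadjusted p under 0.05, and the smallest adjusted p was 0.0625. Some of these rows share a gene with a member called at 60 min. The row of HOXB6 and HOXB3 together changed by -0.26 with EcN and -0.13 with ST at 60 min. The rows of HOXD4 and HOXD3 together changed by -0.24 and 0.01 with EcN and by -0.04 and 0.19 with ST. A row with several symbols cannot be assigned to 1 of its genes.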
